A study of Mus musculus with 35 samples.

Results

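Interferon regulatory factors (IRFs) were examined as the regions listed around 5 of their genes, Irf1, Irf5, Irf7, Irf8 and Irf4, in chromatin immunoprecipitation followed by sequencing (ChIP-seq) of mouse macrophages. A region was taken if it was at most 100 kb wide and overlapped a fixed window of mouse genome build mm9. The windows were chr11:53560000-53610000 for Irf1, chr6:29460000-29505000 for Irf5, chr7:148430000-148470000 for Irf7, chr8:123240000-123350000 for Irf8 and chr13:30820000-30880000 for Irf4. They held 245 regions, of 250088 in all 35 lists and of 233211 that were at most 100 kb wide. The Irf1 window held 66 of them, Irf8 64, Irf5 52, Irf7 48 and Irf4 15. By target, 167 were regions of acetylated histone H4 (H4ac), 57 of RNA polymerase II (Pol II), 10 of histone H3 trimethylated at lysine 27 (H3K27me3), 7 of the NF-κB subunit p50, 3 of the transcription factor ATF3 and 1 of the NF-κB subunit p65. The smallest region was 100 bp and the median 2920 bp.

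IRFs are DNA-binding proteins that share an N-terminal domain and recognise interferon-stimulated response elements. In macrophages, toll-like receptor 4 senses lipopolysaccharide (LPS), an outer membrane component of Gram-negative bacteria, and starts NF-κB signalling and, through IRF3, the making of type I interferon. Secreted interferon then acts back on the cells through its receptor, and Irf1 and Irf7 are textbook targets of that second step. Among the 5 genes, Irf1 encodes an interferon- and NF-κB-inducible activator, Irf5 an activator of inflammatory cytokine genes, Irf7 the amplifier of type I interferon production, and Irf8 a factor that sets and keeps myeloid identity. Irf4, which encodes a lymphoid and alternative-activation factor, competes with IRF5 for the adaptor MyD88.

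All libraries came from wild-type bone marrow-derived macrophages of female C57BL/6 mice aged 8 to 12 weeks, either left without stimulation or given LPS. The p50 libraries were 3 unstimulated and 4 at 60 min of LPS. H4ac had 2 libraries each without LPS and at 60, 120 and 240 min. The Pol II libraries were 1 without LPS, 2 at 60 min, 1 at 120 min, 2 at 240 min and 1 at 360 min. For p65 there were 1 unstimulated library, 2 at 60 min and 2 at 120 min. ATF3 had 3 libraries at 240 min and no unstimulated one. H3K27me3 had 1 library each without LPS and at 120, 240 and 480 min, and 1 with 60 min of LPS and a 7 h delay by its title, for which another label gives 480 min. Libraries are named here by the letter in their titles (A, B, C, D or X), and the labels do not say whether letters are separate animals or cultures. P-values therefore take libraries as the unit and cover no wider spread, and the spread between libraries may be technical. For H4ac and Pol II the tests pooled the LPS libraries of all times. The SD and p there also hold differences between times.

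The promoters of the 3 genes on which the results turn are shown, as the bases before the annotated start, from RefSeq on build GRCm38.p6. The regions are on mm9 and coordinates were not converted, so whether a region covers a promoter is not stated. Each of the 300-base promoter windows (250 bases before to 50 after the start) was searched on both strands for the NF-κB consensus and for the core of the interferon-stimulated response element, GAAANNGAAA. Capitals mark the match found. The Irf1 sequence is chr11:53769764-53770013 on the plus strand, the Irf8 sequence chr8:120736108-120736357 on the plus strand, and the Irf7 sequence chr7:141266425-141266674, read on the minus strand.
Irf1: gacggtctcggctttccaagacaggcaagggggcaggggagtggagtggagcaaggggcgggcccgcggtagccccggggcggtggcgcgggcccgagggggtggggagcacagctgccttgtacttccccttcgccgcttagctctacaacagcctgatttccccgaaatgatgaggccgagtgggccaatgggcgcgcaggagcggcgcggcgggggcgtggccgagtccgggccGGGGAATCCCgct
Irf8: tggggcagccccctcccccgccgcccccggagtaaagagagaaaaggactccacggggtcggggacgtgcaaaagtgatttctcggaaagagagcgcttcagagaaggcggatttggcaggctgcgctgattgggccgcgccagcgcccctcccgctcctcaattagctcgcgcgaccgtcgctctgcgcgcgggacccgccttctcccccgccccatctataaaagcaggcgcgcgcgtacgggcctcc
Irf7: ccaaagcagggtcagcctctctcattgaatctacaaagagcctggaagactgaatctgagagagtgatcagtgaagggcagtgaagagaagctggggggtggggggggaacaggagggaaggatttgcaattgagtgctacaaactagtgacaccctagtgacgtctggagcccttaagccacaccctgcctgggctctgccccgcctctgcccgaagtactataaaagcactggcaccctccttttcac

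The Irf1 promoter held an NF-κB match, GGGGAATCCC at -13 to -4 from the start. No NF-κB match was found in the promoters of Irf8, Irf7, Irf5 and Irf4 or in the second annotated promoters of Irf1 and Irf8, and the response-element core was in none of the 7 windows. Among 32851 promoters of the same length, 8.46% held the NF-κB consensus and 3.44% the response-element core. A match describes letters in these windows and is not a measured binding site. In RefSeq order, Irf1 lies between Il5 and Slc22a5, Irf5 between Kcp and Tnpo3, Irf7 between Phrf1 and Cdhr5, Irf8 between Cox4i1 and Foxf1, and Irf4 between Dusp22 and Exoc2. Which of these neighbours fall inside the mm9 windows was not determined.

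The measure used for each library is the length of a window covered by its listed regions. The width limit was 10 kb for the 3 factors and H4ac. It was 100 kb for the broader Pol II and H3K27me3. A list holds a position and the authors' score for each region and no read counts, so depth is unknown, and a region that is missing is not listed rather than unbound. Lists had 324 to 1378 regions for p50, 255 to 2285 for p65, 1257 to 3954 for ATF3, 15256 to 28522 for H4ac, 2948 to 7728 for Pol II and 2687 to 4707 for H3K27me3. Scores were used to order regions inside 1 list, and ranks from lists of different lengths show no change. Among the factor lists, 4 stood apart: 2.75% to 7.62% of the regions of p65 A at 60 min, p65 C at 120 min, ATF3 B and ATF3 C touched H4ac, against 23.7% to 79.3% in the others. The unstimulated Pol II library carries a title date that no other Pol II library has, so date and condition cannot be told apart for Pol II. For the background, the genome was cut into 50 kb tiles, and the same call was made over every tile with a region of the target in at least 1 list. The windows are 40 to 60 kb long, except for Irf8 with 110 kb. Shares of tiles are therefore a looser comparison for Irf8, where a longer window can more easily hold a region. Macrophage marker genes and the other Irf genes were not analysed here.

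Pol II was listed in the windows of Irf1, Irf5 and Irf7 in all 7 libraries, which held for 12.3% of 7762 tiles. Pol II regions up to 100 kb were listed at Irf8 in 5 of 7 libraries, and at Irf4 in none. Averaged over the 7 libraries, Pol II regions covered 44.2% of the Irf5 window (37.0% to 47.8%), 34.4% of Irf1 (19.5% to 46.0%), 31.7% of Irf7 (17.3% to 56.3%) and 18.3% of Irf8 (0% to 38.0%), where the median tile had 8.93%. The ranges of the first 4 overlapped, so their order is not separated by the spread between libraries. H4ac was listed at Irf1, Irf5 and Irf8 in all 8 libraries, against 37.1% of 14363 tiles. At Irf8, whose window is longer than a tile, all 8 lists shared only 0.39 kb. H4ac covered on average 28.7% of the Irf1 window, 28.2% of Irf5, 10.8% of Irf8, 9.64% of Irf7 and 3.37% of Irf4. The ranges overlapped between neighbours in that order. H3K27me3 regions up to 100 kb were listed in all 5 libraries only at Irf7, against 28.5% of 5659 tiles, and in none at Irf1 and Irf5.

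**Figure D1:**
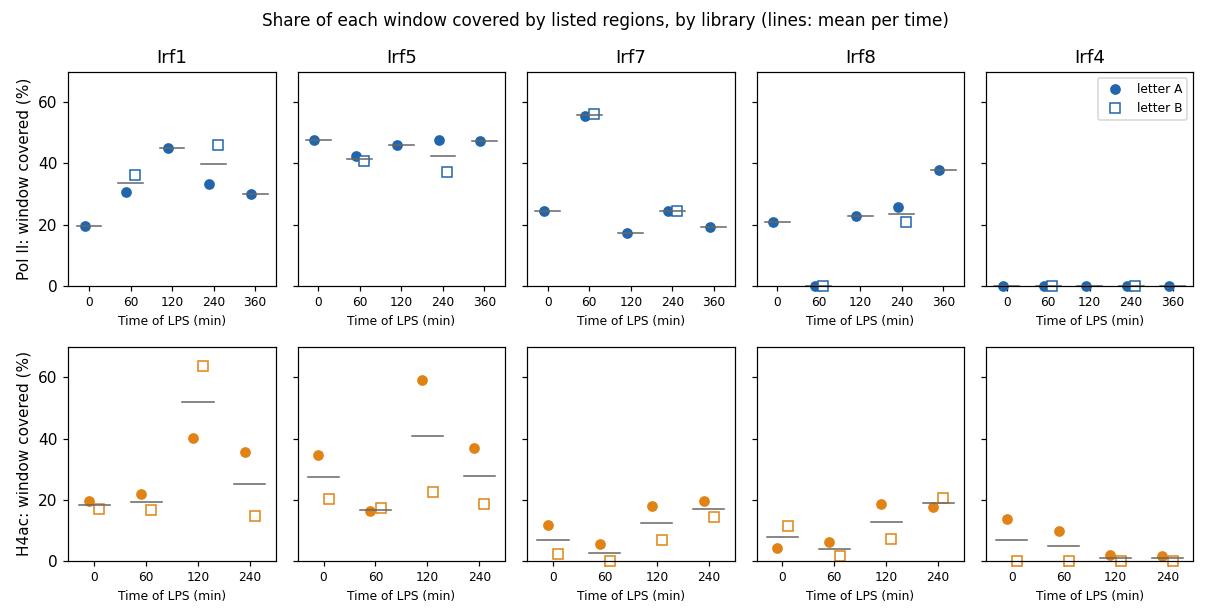
Share of each window (percent, vertical axes) covered by listed regions of Pol II (top row, regions up to 100 kb) and H4ac (bottom row, regions up to 10 kb) against time of LPS in minutes, with 0 for unstimulated. Filled circles are letter A libraries, open squares letter B, and grey lines the mean of each time. Pol II stands at 19.5% at Irf1 without LPS and at 30.0% to 46.0% in the 6 LPS libraries. It has no region up to 100 kb at Irf8 at 60 min and none at Irf4 at any time.

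At Irf1, which encodes an activator induced by interferon and NF-κB, Pol II covered more of the window in each LPS library than in the unstimulated one. It covered 9.77 kb without LPS, 15.37 kb and 18.17 kb at 60 min in libraries A and B, 22.56 kb at 120 min, 16.68 kb and 22.99 kb at 240 min, and 14.98 kb at 360 min. The LPS libraries averaged 18.5 ± 3.53 kb (SD, n = 6), which was 8.69 kb above the unstimulated value. The groups did not overlap, a pattern found in 4.34% of Pol II tiles. An exact two-sided permutation test gave p = 0.286, the smallest p that 6 libraries against 1 allow. Under a 10 kb limit the difference was -4.29 kb, because the long Pol II regions in the LPS lists then drop out.

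The added Pol II length at Irf1 lay outside a stretch that every library shared. All 7 lists covered chr11:53583451-53593020, 9.57 kb long, where such shared base pairs were 4.91% of all base pairs listed for Pol II in any library. All 6 LPS lists and not the unstimulated one also covered chr11:53593021-53597470, the next 4.45 kb to the right, and 160 bp at chr11:53576871-53577030, left of the shared stretch and apart from it. The unstimulated list held no wider Pol II region there either. Base pairs with that pattern were 1.47% of the same total. In the 240 min B list a single region, chr11:53575261-53585960, ran from the left stretch into the central one. The best-ranked Pol II region at Irf1 stood at 2573 of 7436 in the unstimulated list, at 60 of 4559 at 120 min and at 533 of 2948 at 360 min.

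**Figure D2:**
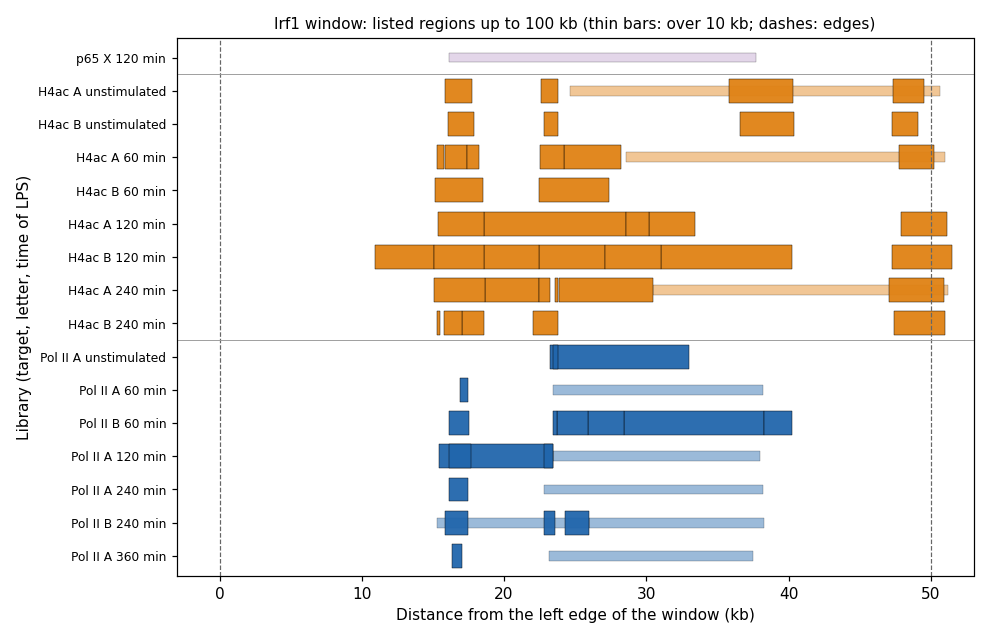
Listed regions up to 100 kb in the Irf1 window, 1 row per library of H4ac, Pol II and the only p65 library with such a region there. The horizontal axis is the distance in kb from the left edge of the window. Thick bars are regions up to 10 kb, thin bars wider ones, and dashed lines the window edges. Every LPS row of Pol II has regions near 17 kb and reaches beyond 37 kb, while the unstimulated row ends at 33 kb.

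H4ac at Irf1, counted up to 10 kb, was widest at 120 min in both letters. The covered lengths in libraries A and B were 9.73 kb and 8.48 kb without LPS, 10.86 kb and 8.28 kb at 60 min, 20.15 kb and 31.96 kb at 120 min, and 17.86 kb and 7.32 kb at 240 min. Both 120 min values lay above both unstimulated ones, as in 12.9% of H4ac tiles, while the 60 and 240 min values overlapped them. Under a 100 kb limit the unstimulated A library reached 28.47 kb, and the 120 min values, 20.15 kb and 31.96 kb, no longer stood apart. Over all LPS libraries the mean was 16.1 ± 9.35 kb (SD, n = 6) against 9.11 ± 0.884 kb (SD, n = 2), with an exact two-sided permutation p of 0.5, where the smallest possible is 0.0714.

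The longest H4ac stretch that all 8 libraries covered at Irf1 was chr11:53576051-53577750, with 6.18% of the base pairs listed for H4ac shared in that way. The left Pol II stretch of the LPS lists, chr11:53576871-53577030, lay inside it. The region that ranked best among H4ac at Irf1 overlapped this stretch in every list, at 3.71% and 7.79% of the list without LPS, 3.51% and 16.3% at 60 min, 0.795% and 1.08% at 120 min and 1.49% and 1.30% at 240 min. In 5 short stretches of 20 to 320 bp, 0.6 kb together, H4ac was listed in all 6 LPS libraries and in neither unstimulated one, which applied to 1.03% of those base pairs. This counts regions up to 10 kb, and both unstimulated lists held regions over 100 kb that lay over these stretches.

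Irf5, the activator of inflammatory cytokine genes, was listed with Pol II and H4ac without LPS and at every time. Pol II covered 21.52 kb without LPS, 19.05 kb and 18.33 kb at 60 min, 20.75 kb at 120 min, 21.44 kb and 16.67 kb at 240 min, and 21.34 kb at 360 min. All 7 lists shared chr6:29477421-29493940, 16.52 kb long. Each LPS value lay below the unstimulated one, the 240 min A library with 21.44 kb coming closest, and the mean difference was -1.92 kb with an exact two-sided permutation p of 0.286, again the smallest possible. Of all Pol II tiles, 28.1% showed that pattern. Under the 10 kb limit the Pol II difference at Irf5 was 1.80 kb, because most lists then held nothing there.

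H4ac at Irf5 covered 15.62 kb and 9.09 kb without LPS, 7.34 kb and 7.70 kb at 60 min, 26.62 kb and 10.12 kb at 120 min, and 16.66 kb and 8.41 kb at 240 min in libraries A and B. The 60 min values lay below both unstimulated ones, as in 31.3% of tiles, and the other times overlapped them. The 60 min call ended with regions up to 20 kb, when the 60 min values spanned 7.70 to 19.92 kb and the unstimulated ones 9.09 to 29.08 kb. In every library H4ac covered chr6:29472851-29479930, 7.08 kb, whose right part overlapped the left end of the shared Pol II stretch. The best-ranked H4ac region at Irf5 stood in the top 0.824% and 0.978% of the unstimulated lists and between 1.20% and 8.93% in the LPS lists.

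**Figure D3:**
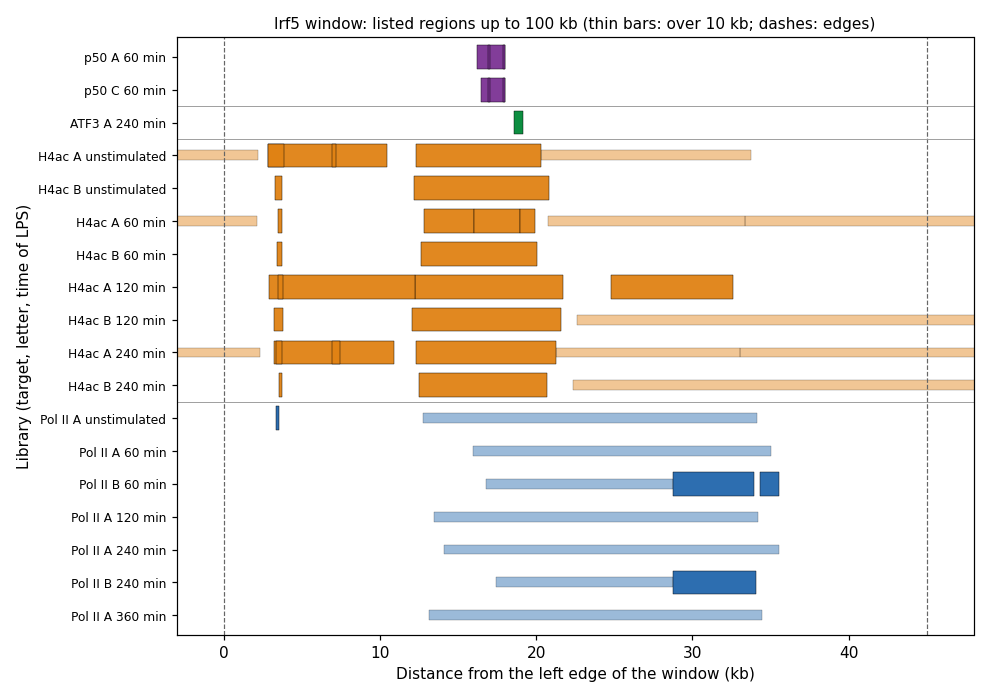
Listed regions in the Irf5 window, 1 row per library of H4ac and Pol II and of the p50 and ATF3 libraries with a region there; the horizontal axis is the distance in kb from the left edge of the window. Thick bars are regions up to 10 kb, thin bars wider ones, and dashed lines the window edges. The p50 and ATF3 regions lie between 16 and 20 kb, inside the block of H4ac that all 8 libraries hold.

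Irf5 was also the only window with p50 regions up to 100 kb in more than 1 library. The p50 regions covered 1.82 kb in the 60 min A library and 1.54 kb in the 60 min C library, and none was listed in the 60 min B and D libraries or in the 3 unstimulated ones. Both libraries held a long region, chr6:29476211-29478030 in A and chr6:29476471-29478010 in C, and a pair of short ones nested in it. The short ones lay at chr6:29476921-29477060 and chr6:29477871-29478030 in A and within 10 bp of those starts in C, and the left one ranked 683 of 1378 in A and 289 of 1253 in C. The LPS mean was 0.84 ± 0.977 kb (SD, n = 4) against 0 in the unstimulated libraries, with an exact two-sided permutation p of 0.571 where the smallest possible is 0.0571. Of 2219 p50 tiles, 24.5% were likewise held by 2 or more LPS lists and by none of the unstimulated lists. The A and C libraries share a title date in both conditions, and the B and D libraries at 60 min have other dates. ATF3, a stress-induced factor known to dampen toll-like receptor responses, was listed to the right of p50 at chr6:29478611-29479130 in library A at 240 min and not in B or C. These p50 and ATF3 regions overlapped H4ac in all 8 libraries.

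Irf7, the amplifier of interferon production, ranked at 31.9% or lower down in the Pol II and H4ac lists that held it up to 60 min, and near the top of all of them from 120 min. Its best-ranked Pol II region stood at 2983 of 7436 without LPS and at 2756 of 5519 and 3586 of 6061 at 60 min. From 120 min it stood at 70 of 4559, at 60 of 5144 and 118 of 7728 in the 240 min A and B lists, and at 85 of 2948 at 360 min. It was therefore in the top 5% of all 4 lists from 120 min and of none of the 3 earlier ones, which 0.309% of Pol II tiles matched. None of the other 4 windows did. This rank rule was chosen after the values had been seen, and ranks do not measure a change in amount. The Pol II A lists at 60, 120 and 360 min share a title date, as do the B lists at 60 and 240 min, so the division was also present within each date.

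H4ac at Irf7 divided the times in the same way. The best-ranked region stood at 44.1% and 66.8% of the unstimulated A and B lists, at 31.9% at 60 min in A, and was not listed at 60 min in B. At 120 min it ranked 78 of 23028 and 111 of 15256, and at 240 min 19 of 27235 and 251 of 17894. The best-ranked region did not lie at the same place in all of these lists. The 4 lists from 120 min all had it in their top 5% and the 4 earlier lists did not, as in 0.898% of H4ac tiles. Irf7 was again the only one of the 5 windows to meet the rule, but that depends on the 5% limit. At Irf8 the best H4ac region stood at 9.11% to 22.3% in the 4 earlier lists and at 1.03% to 6.26% in the 4 later ones. At Irf1 too, each list from 120 min had a better best rank than each earlier list. The letter A lists at 0, 60 and 120 min share a title date, and the letter B lists of all 4 times share another. The division at Irf7 between 60 and 120 min was thus present within each of these dates. The 240 min A list has a date of its own, and here too ranks do not measure a change in amount.

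In covered length, by contrast, Pol II at Irf7 was not separated between LPS and unstimulated libraries. It covered 9.75 kb without LPS, 22.23 kb and 22.52 kb at 60 min, 6.92 kb at 120 min, 9.71 kb and 9.80 kb at 240 min, and 7.74 kb at 360 min (exact two-sided permutation p = 1). Both 60 min values lay above the unstimulated one, as in 22.9% of Pol II tiles, and came from regions of 44.7 kb and 38.09 kb that began left of the window. The direction turned under a 20 kb limit, with 0 and 7.25 kb at 60 min against 9.75 kb. The unstimulated list also held a region of 114.95 kb, over the limit, that ran from left of the window to 148455930. All 7 lists shared chr7:148445811-148452230, 6.42 kb. A second, short Pol II region was listed right of it from 120 min: the stretch chr7:148454961-148455160 was in all 4 lists from 120 min and in none of the earlier 3, as were 0.847% of the base pairs listed for Pol II. That absence holds for regions up to 100 kb: the wider unstimulated region just named and a region of 1241.47 kb in the 60 min B list lay over the stretch.

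**Figure D4:**
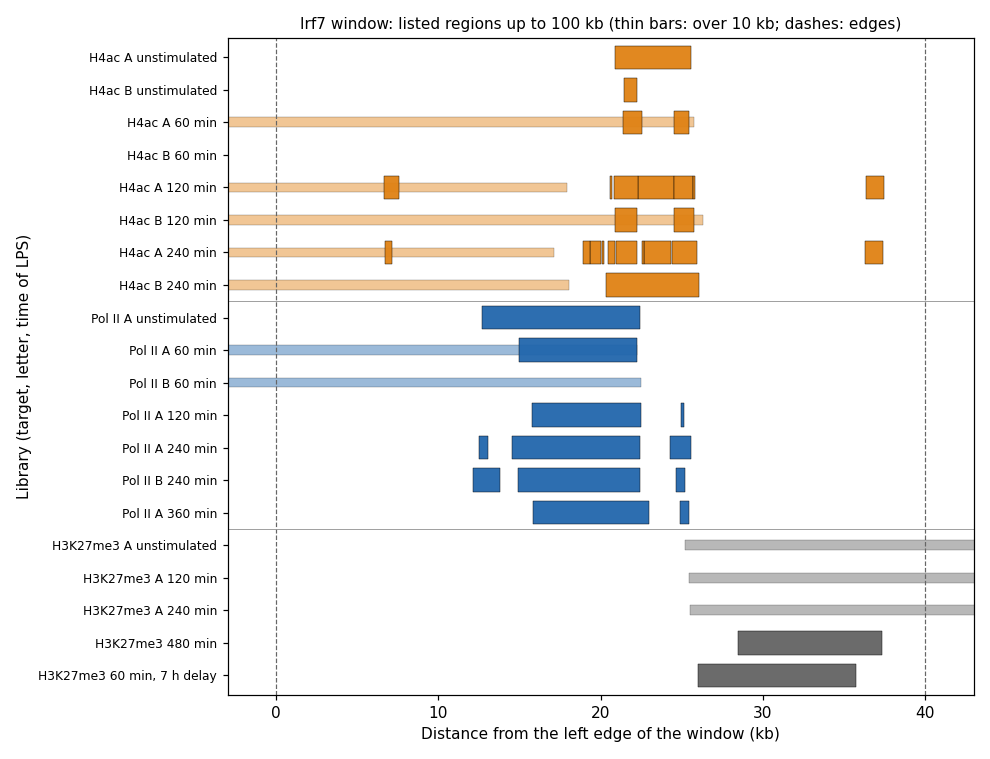
Listed regions in the Irf7 window, 1 row per library of H4ac, Pol II and H3K27me3; the horizontal axis is the distance in kb from the left edge of the window. Thick bars are regions up to 10 kb, thin bars wider ones, and dashed lines the window edges. Pol II shows a second region near 25 kb only from 120 min, and the H3K27me3 rows begin between 25 and 29 kb.

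H4ac at Irf7 covered 4.64 kb and 0.82 kb without LPS, 2.13 kb and 0 kb at 60 min, 7.12 kb and 2.66 kb at 120 min, and 7.77 kb and 5.71 kb at 240 min in libraries A and B. Only the 240 min values lay above both unstimulated ones, which 16.5% of tiles showed. When regions up to 100 kb counted, the values were 24.17 kb and 26.34 kb at 120 min and 24.5 kb and 23.79 kb at 240 min. The unstimulated values stayed at 4.64 kb and 0.82 kb. No share of tiles is available for these times at that limit, so no call is made. In each 120 and 240 min list most of the length then came from regions over 10 kb. The 120 min A list held 1 of 47.16 kb that began left of the window. The 60 min values at that limit were 25.78 kb and 0 kb. The best-ranked H4ac region of the later lists was chr7:148450841-148452280 in the 120 min A list and chr7:148454401-148455930 in the 240 min A list. The left one overlapped the right end of the shared Pol II stretch and the right one contained the short late Pol II stretch.

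H3K27me3, the mark laid down by Polycomb repressive complex 2, was listed at the right of the Irf7 window in all 5 libraries. Its regions were 26.63 kb wide without LPS, 26.52 kb at 120 min, 27.35 kb at 240 min, 8.86 kb at 480 min and 9.79 kb in the library with 60 min of LPS and a 7 h delay. The left ends lay at 148455211, 148455461, 148455501, 148458481 and 148455981 in that order, and all 5 lists shared chr7:148458481-148465770, against 16.8% of the base pairs listed for H3K27me3. The 2 narrow regions belong to the libraries without a letter, which share a title date and have no unstimulated library on it. Each condition had 1 library, and no test was run. The left ends without LPS and at 120 and 240 min fell inside the H4ac region chr7:148454401-148455930 of the 240 min A list. Regions of 177.97 kb without LPS and of 244.47 kb in the library with the delay, over the width limit, covered the whole window.

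Irf8, which maintains myeloid identity, had Pol II in 5 of 7 libraries. Pol II covered 23.08 kb without LPS, 24.91 kb at 120 min, 28.46 kb and 22.93 kb at 240 min, and 41.78 kb at 360 min, and no region up to 100 kb was listed in either 60 min library. A region of 240.97 kb, chr8:123049261-123290230, lay over the left part of the window in the 60 min A list, where the other lists had Pol II, and the 60 min B list had none of any width. Presence in all other lists and absence from both 60 min lists occurred in 1.11% of Pol II tiles. The 60 min A list shares its title date with the 120 and 360 min lists and the 60 min B list with the 240 min B list. On each of these dates the 60 min list lacked a region up to 100 kb. At any width, only the B list lacked 1. Pooled over times, the LPS and unstimulated values overlapped (exact two-sided permutation p = 1). The widest Pol II region of each list without LPS and at 120 and 240 min was 22.46 to 24.72 kb long and began between 123259051 and 123260291 on chromosome 8. The 120 min and both 240 min lists also held a shorter one, of 1.45 to 5.92 kb, across the left edge of the window.

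**Figure D5:**
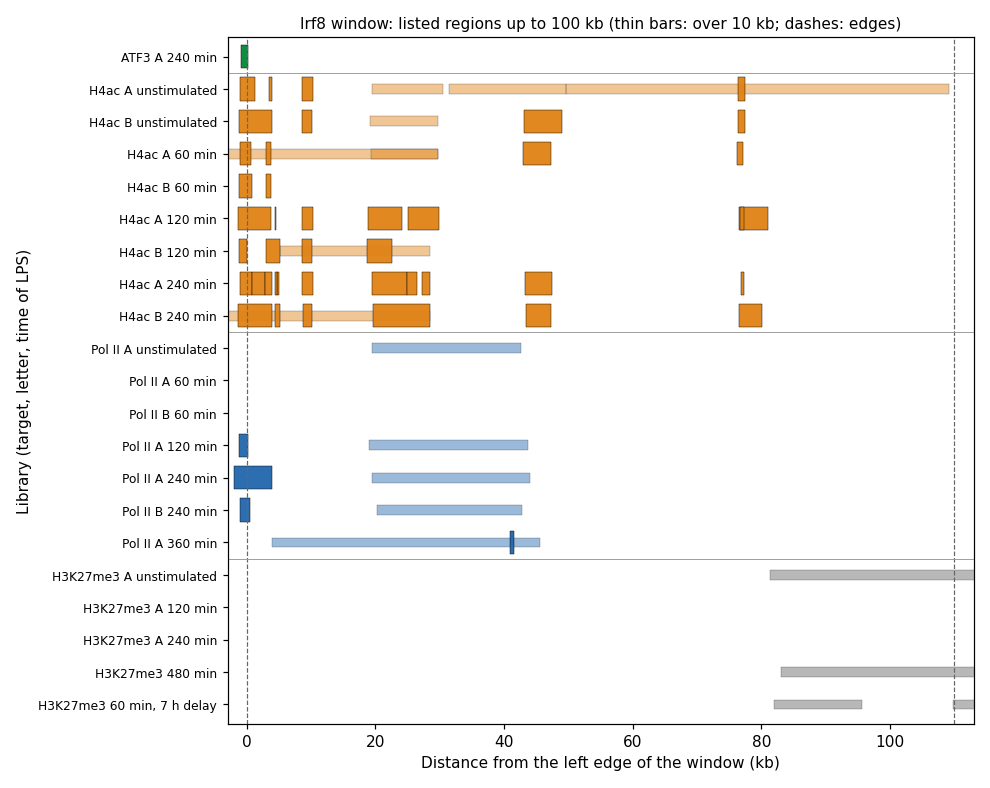
Listed regions up to 100 kb in the Irf8 window, 1 row per library of H4ac, Pol II and H3K27me3 and of the only ATF3 library with such a region. The horizontal axis is the distance in kb from the left edge of the window. Thick bars are regions up to 10 kb, thin bars wider ones, and dashed lines the window edges. No Pol II region up to 100 kb is in either 60 min row, and the H3K27me3 regions shown begin right of 80 kb.

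H4ac at Irf8 depended on the width limit. Counting those up to 10 kb, it covered 4.55 kb and 12.36 kb without LPS, 6.71 kb and 1.52 kb at 60 min, 20.29 kb and 7.66 kb at 120 min, and 19.18 kb and 22.62 kb at 240 min. The 240 min values then lay above both unstimulated ones, as in 16.5% of tiles. The unstimulated A and B lists and the 60 min A list, however, held regions of 10.97, 10.61 and 10.47 kb near chr8:123259101-123270470, just over the limit. With regions up to 20 kb, a limit chosen after the values had been seen, the unstimulated libraries had 33.65 kb and 22.97 kb, and all 6 LPS libraries lay lower, at 1.52 to 22.62 kb. That difference was -13.6 kb with an exact two-sided permutation p of 0.0714, the smallest possible for 6 against 2, and 15.9% of tiles showed it at that limit. No direction is given for H4ac coverage at Irf8.

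The right part of the Irf8 window carried H3K27me3. Without LPS a region of 35.27 kb lay at chr8:123321371-123356640, at 480 min one of 80.84 kb, and the library with the 7 h delay had regions of 13.68 kb and 51.85 kb. At 120 and 240 min the list held only regions over 100 kb there. The H3K27me3 and Pol II regions up to 100 kb did not overlap at Irf8, since the rightmost Pol II region ended at 123285620, while some wider H3K27me3 regions reached over the left part of the window. ATF3 was listed in library A at 240 min at chr8:123239091-123240110, across the left edge of the window, where H4ac was listed in all 8 libraries and Pol II in the 120 and 240 min lists.

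Irf4, the lymphoid and alternative-activation factor, had no Pol II region up to 100 kb in any of the 7 lists. A Pol II region of 245.51 kb in the 60 min A list lay over the left part of the window. One of 44370.2 kb in the unstimulated list covered all of it. H4ac covered 8.17 kb without LPS, 5.86 kb at 60 min, 1.13 kb at 120 min and 1 kb at 240 min in library A, and nothing in library B at any time. The groups overlapped, and the exact two-sided permutation p was 0.5. Counting regions up to 100 kb separated them, with 50.47 kb and 60 kb in the unstimulated A and B libraries and 0 to 17.19 kb in all 6 LPS libraries. That difference was -52.0 kb with an exact two-sided permutation p of 0.0714, the smallest possible, and 12.9% of tiles showed it at that limit. It came from unstimulated regions of 55.33 kb in A and 94.71 kb in B, the latter over the whole window. Regions over the limit covered the whole window in LPS lists, 159.95 kb and 173.98 kb wide at 60 min in A and B. Others were 311.12 kb wide at 120 min in A and 455.38 kb at 240 min in B. The 120 min B and 240 min A lists held none over 100 kb. The separation thus rests on the 100 kb limit. The mean was lower with LPS at each limit tried (1, 10, 20 and 100 kb), the groups separated at 100 kb only, and without the unstimulated A library the 10 kb difference was 1.33 kb. H4ac regions at Irf4 ranked in the lower part of their lists, at 55.3% at best. Among H3K27me3 regions up to 100 kb, 1 was listed there, at chr13:30840301-30842510 at 480 min. Wider ones covered the whole window: 1498.36 kb without LPS, 964.16 kb at 120 min and 1518.66 kb with the 7 h delay. A region of 262.75 kb at 480 min lay over the left part, and the 240 min list held none.

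At Irf4 a p50 and an ATF3 region overlapped, each listed in 1 library of its target. The p50 region, 100 bp at chr13:30845611-30845710 in the 60 min A library, ranked 1047 of 1378. It overlapped a 150 bp ATF3 region at chr13:30845481-30845630 in the 240 min C library, 1 of the lists that stood apart. The ATF3 region ranked 892 of 2604, and they shared only 30845611 to 30845630. No H4ac region up to 10 kb and no Pol II region up to 100 kb overlapped either. At Irf1, 1 p65 region up to 100 kb was listed, in library X at 120 min, at chr11:53576131-53597720. It was 21.59 kb wide, ranked 329 of 814, and overlapped the central Pol II stretch and the H4ac stretch to the left of it. No p50 or ATF3 region up to 100 kb was listed at Irf1. Up to that width none of p50, p65 or ATF3 was listed at Irf7, and neither p50 nor p65 at Irf8. Wider p50 regions lay over Irf1 in 2 of 7 lists, over Irf7 in 7 of 7 and over Irf8 in 6 of 7. Wider p65 regions lay over Irf1 in 3 of 5 lists. Over both Irf7 and Irf8 they were in 5 of 5 lists, and wider ATF3 regions in 3 of 3.

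The 5 windows varied unevenly together across the 8 H4ac libraries. By Pearson's r the closest pair was Irf7 and Irf8, with r of 0.76 and Spearman's rho of 0.69 between covered lengths up to 10 kb. Irf5 and Irf7 had r of 0.727 and the higher rho, 0.738, and Irf8 and Irf4 had the lowest r, -0.412. These libraries share times, letters and list lengths, and covered length itself had r between -0.185 and 0.689 with list length. The values describe the 8 lists and carry no test.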

How the data were processed

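ChIP-seq regions of 6 targets in 35 libraries were used. Each region carries a score made by the authors, which ordered regions within a list. Build mm9 was named per the submitters' processing notes. Depth is unknown. The aligner, caller and thresholds were not given in the sources used here. Groups came from the labels. Regions were clipped to each window and joined, and the covered length was compared by exact two-sided permutation tests over libraries, 15 in all (3 targets by 5 windows). None of these designs allows a p below the 0.05 threshold, so no adjusted p is given. Coordinates are 1-based. Calls were repeated over 50 kb tiles for the background. All 5 genes were named in every target and time; single sites were named if every library of the target held them, if at least 2 libraries of 1 condition and none of the other did, or if they ranked best. Stretches shared at base-pair level, the top 5% rank rule and the 20 kb limit were added after seeing the data. The genes and lists were chosen with earlier results of these data known. The alternatives were other width limits, tile sizes, region sets and left-out libraries. The code was tested on simulated data, in Python 3.11.15 with NumPy 2.4.6, SciPy 1.17.1 and Matplotlib 3.10.9. The search for 1 further promoter motif is not reported here.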

Additional observations from a re-analysis of the deposited data

Results flagged for a closer look

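In 2 of the 11 groups of 4 to 10 libraries tested for a value far from the rest, 1 library stood apart at Irf4, and chance flags about 1 in 20 such groups. The p50 A library at 60 min had 0.1 kb covered in the Irf4 window, where the other 3 libraries at that time had none. With the others all at 0, any covered length would have been flagged, so the rate of 1 in 20 does not apply there. The H4ac A library at 60 min had 5.86 kb covered in the same window, against 0 to 1.13 kb in the other 5 LPS libraries. Pol II coverage moved in opposite directions at different times in 2 windows, relative to the 1 unstimulated library, and the difference was not tested. At Irf7 it was 12.6 kb higher at 60 min, and the differences were -2.83 kb at 120 min and -2.01 kb at 360 min. Of all Pol II tiles, 22.9% were higher at 60 min, 49.9% lower at 120 min and 55.8% lower at 360 min. With regions up to 20 kb the 60 min values at Irf7 were 0 and 7.25 kb, against 9.75 kb without LPS. At Irf8 the difference was -23.1 kb at 60 min, 1.83 kb at 120 min and 18.7 kb at 360 min. Here the shares of Pol II tiles were 38.6% lower at 60 min, 25% higher at 120 min and 13.5% higher at 360 min.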

How the results depend on the processing

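Values here are covered lengths, LPS minus unstimulated. Of 149 values under alternatives, 124 kept their direction, 21 reversed and 4 were 0. No design here could pass the threshold, so keeping a side of it shows nothing. With regions up to 10 kb, the Pol II difference turned to -4.29 kb at Irf1, 1.80 kb at Irf5, -2.85 kb at Irf7 and 0.865 kb at Irf8. With regions up to 1 kb it was 0.102 kb for Pol II at Irf8 and -0.0683 kb for H4ac at Irf1. With the better-scored 50% of each list it was 0 for p50 and for H4ac at Irf4, -0.565 kb for H4ac at Irf5 and -3.03 kb for Pol II at Irf7. Regions wholly inside the window gave -2.85 kb for Pol II at Irf7. Counting regions gave 0 for H4ac at Irf5 and 0.333 for Pol II at Irf8. For H4ac, limits of 20 kb and 100 kb gave -13.6 kb and -34.7 kb at Irf8, and 20 kb gave -0.225 kb at Irf5. With the letter as a replicate block, the only changed direction was Pol II at Irf8, 0.708 kb; the labels do not say that a letter marks a shared animal or day. Leaving out 1 library each gave 0.513 to 1.12 kb for p50 at Irf5 and 0 to 0.0333 kb at Irf4. For H4ac it gave 3.79 to 8.72 kb at Irf1, -2.81 to 3.72 kb at Irf5, -0.408 to 3.41 kb at Irf7, 0.637 to 8.45 kb at Irf8 and -6.84 to 1.33 kb at Irf4. For Pol II it gave 7.78 to 9.38 kb at Irf1, -2.29 to -1.34 kb at Irf5, 1.53 to 4.65 kb at Irf7 and -7.82 to 0.536 kb at Irf8. Apart from width limits, which change the regions counted, the cause was not tested. For 4 results (p50 at Irf1, Irf7 and Irf8, and Pol II at Irf4) every value was 0.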
